A study of Homo sapiens with 6 samples.

Results

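The transcripts of the human mitochondrial chromosome (chrM) and of its copies in the nuclear genome were compared between HCT116 cells with and without overexpressed RBM47. All genes of the count table that lie on chrM were taken, together with genes on other chromosomes whose symbols number them as pseudogenes of a mitochondrial ND, CO, CYB, ATP or RNR gene, and those with a mean of at least 1 count over the 6 libraries were kept. This gave 45 of the 28491 genes in the table. Of these, 36 of the 37 chrM genes listed were kept, which were 13 mRNA genes, 2 rRNA genes and 21 tRNA genes, and 9 of the 26 nuclear copies listed. The chrM genes and the nuclear copies are described apart.

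HCT116 is an established human colorectal carcinoma line, and all 6 libraries came from cells transfected with a plasmid by Lipofectamine. The labels give harvest after 48 h in other assays, and the methods give 48 h of culture after transfection before downstream experiments. The 3 NC libraries come from cells with a control plasmid and the 3 RBM47-OE libraries from cells with a plasmid that expresses RBM47, an RNA-binding protein, so that both groups share the transfection. The RBM47 plasmid is pcDNA3.1-3xFlag-RBM47 in the labels and is built on pIRES-hrGFP-1a in the methods, and neither source says whether replicates were separate cultures, so p-values measure the spread between these libraries, which may be technical. Polyadenylated RNA was sequenced in pairs of 150 nt reads, and library totals ranged from 26792409 to 35477983 counts. RBM47 had 1.91 to 2.33 FPKM in NC and 127 to 131 in RBM47-OE, a log2 fold change of 5.90 (edgeR, SE 0.096, adjusted p = 1.7e-25). The epithelial markers EPCAM, KRT8, KRT18, KRT19 and CDH1 were present at 12.9 FPKM or more in every library and VIL1 at 0.09 or less. Of the markers of other cell types, PTPRC and COL1A2 are not listed in the FPKM table, CD3E, PECAM1 and VWF had 0.14 FPKM or less, and COL1A1 had 1.31 to 1.72.

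Mitochondrial DNA is a small circle that is transcribed from both strands into long precursors. tRNA genes lie between most of the other genes, and their excision frees the rRNAs and mRNAs, which then receive short poly(A) or oligo(A) tails. The proteins made from these mRNAs are core subunits of the respiratory chain and of ATP synthase, whereas every protein needed to copy, transcribe and process mitochondrial DNA and RNA comes from nuclear genes. Pieces of mitochondrial DNA have also been inserted into the nuclear chromosomes in evolution, and recent insertions still resemble their source closely enough that short reads can be hard to place. Mitochondrial transcripts are abundant in epithelial cancer lines such as HCT116.

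The pairs of sequences on which the counts of the nuclear copies rest are shown first, because a read can be told apart only where copy and source differ. Sequences and coordinates are those of GRCh38 with GENCODE 44, written 5′ to 3′, and capitals mark the differing bases. The 3 copies with the most counts lie on the plus strand of chromosome 1, within 5283 bases (chr1:629640-634922) that hold 6 of the listed copies in the same order as their sources on chrM. For each of these 3 copies, the stretch of 60 bases with the most differences from its source is given, for the source and then for the copy.
MT-ATP6, chrM:8642-8701: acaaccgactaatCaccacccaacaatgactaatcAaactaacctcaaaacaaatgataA
MTATP6P1, chr1:633811-633870: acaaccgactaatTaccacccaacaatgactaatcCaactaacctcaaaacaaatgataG
MT-ND2, chrM:4899-4958: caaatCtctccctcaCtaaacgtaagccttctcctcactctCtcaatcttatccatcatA
MTND2P28, chr1:630069-630128: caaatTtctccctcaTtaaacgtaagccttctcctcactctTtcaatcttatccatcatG
MT-CO1, chrM:6207-6266: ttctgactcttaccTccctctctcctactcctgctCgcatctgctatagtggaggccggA
MTCO1P12, chr1:631377-631436: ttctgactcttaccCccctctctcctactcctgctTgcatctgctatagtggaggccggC

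These stretches hold 3, 4 and 3 differences, and in MTATP6P1 and MTCO1P12 other stretches of that length hold as many. Over its whole length MTATP6P1 was 98.53% identical to MT-ATP6, with 10 mismatches and no gap. MTND2P28 was 98.37% identical to MT-ND2 with 17 mismatches, and MTCO1P12 was 98.64% identical to MT-CO1 with 20 mismatches and 1 gap. The longest stretch without a difference was 141 bases in MTATP6P1, so that each of its 532 windows of 150 bases, the read length, holds at least 1 difference. In MTND2P28 that stretch was 266 bases and 84.3% of windows held a difference, and in MTCO1P12 it was 245 bases with 85.5%.

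At a number of positions the chrM sequence of GRCh38, which comes from 1 person, carries a base that is rare among human mitochondrial genomes. Among the differences listed for the copies are A300G between MT-ND2 and MTND2P28 (chrM position 4769) and A334G between MT-ATP6 and MTATP6P1 (chrM position 8860), with the source's base first and positions counted from 1 at the 5′ end of the source gene. Both are such positions as general knowledge has it. They are shown because a read with the common base matches the nuclear copy, and not the chrM reference, at that position. The nearest other differences of MTND2P28 are T267C and T387C, so a full-length read cannot cover A300G without covering T267C or T387C. For MTATP6P1 they are A192G and C417T, and a full-length read can cover A334G without either. In each of these windows of 41 bases the marked base is the only difference.
MT-ND2, chrM:4749-4789: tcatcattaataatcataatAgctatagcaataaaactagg
MTND2P28, chr1:629919-629959: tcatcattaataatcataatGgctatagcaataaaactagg
MT-ATP6, chrM:8840-8880: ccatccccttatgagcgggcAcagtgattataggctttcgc
MTATP6P1, chr1:634009-634049: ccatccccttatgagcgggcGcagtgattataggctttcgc

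The reads themselves were not analysed here, so which base the HCT116 libraries carry at these positions, and its part in the counts of the copies, was not tested.

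The chrM genes took 2.92, 3.05 and 3.36 percent of all counts on genes in NC replicates 1, 2 and 3, and 3.16, 2.77 and 2.67 percent in RBM47-OE replicates 1, 2 and 3. The groups overlapped, because RBM47-OE replicate 1 lay above NC replicates 1 and 2, and an exact two-sided permutation test of the log2 values gave p = 0.30 (Benjamini-Hochberg adjusted p = 0.40 over 8 such tests). With 3 libraries against 3, 0.10 is the smallest p this test can give. The sums of the rRNA genes and of the mRNA genes did not follow the same pattern within that share. The rRNA sum was mostly MT-RNR2, with 125780 to 178819 counts per library against 16108 to 25495 for MT-RNR1. These 2 genes changed in opposite directions, as given below. The 2 rRNA genes took 0.550, 0.520 and 0.532 percent in NC and 0.601, 0.628 and 0.597 percent in RBM47-OE, without overlap, whereas the 13 mRNA genes took 2.37, 2.53 and 2.82 percent and 2.56, 2.14 and 2.07 percent, with overlap. The tRNA genes took at most 0.00297 percent in any library.

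The ratio of chrM rRNA counts to chrM mRNA counts was 0.232, 0.206 and 0.189 in NC and 0.235, 0.294 and 0.288 in RBM47-OE. Every RBM47-OE library lay above every NC library (exact two-sided permutation test, p = 0.10, adjusted p = 0.16), although RBM47-OE replicate 1 exceeded NC replicate 1 by little. With sums of FPKM in place of counts the groups overlapped (exact two-sided permutation test, p = 0.20). As the rRNA counts were mostly those of MT-RNR2, the ratio does not describe MT-RNR1, which fell with a log2 fold change of -0.51. The rise of MT-RNR2 did not hold in all settings, as given below. In such bulk libraries, fewer cells that hold a transcript and less of it per cell cannot be told apart.

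The levels of the chrM genes relative to gene length are given in FPKM, which scales fragments by gene length and library size. MT-CO2, a subunit of cytochrome c oxidase, had the highest level, 7174 ± 521 (SD, n = 3) FPKM in NC. It was followed by MT-CO1 with 4143 ± 398 (SD, n = 3) and by MT-ND3, a subunit of complex I, with 3683 ± 316 (SD, n = 3), then MT-CO3 and MT-ATP8, and each of these 4 overlapped its neighbour in the order over the NC libraries. MT-RNR2 lay between MT-ATP8 and MT-ATP6 without overlapping either, and MT-ATP6, MT-ND4L and MT-ND4 came next, at 1281 to 1798 FPKM. MT-CYB, the chrM subunit of complex III, overlapped neither the gene above nor the gene below it, though its lowest NC library and the highest of MT-RNR1 both stood at 742. MT-RNR1, MT-ND2, MT-ND1 and MT-ND5 overlapped their neighbours at 506 to 742 FPKM. The lowest was MT-ND6, the only mRNA gene encoded on the other strand, with 242 ± 5.73 (SD, n = 3) FPKM. In RBM47-OE the highest and the lowest mRNA gene were again MT-CO2 and MT-ND6, and MT-RNR2 was in the fourth place, overlapping MT-CO3 and MT-ND3.

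**Figure D1:**
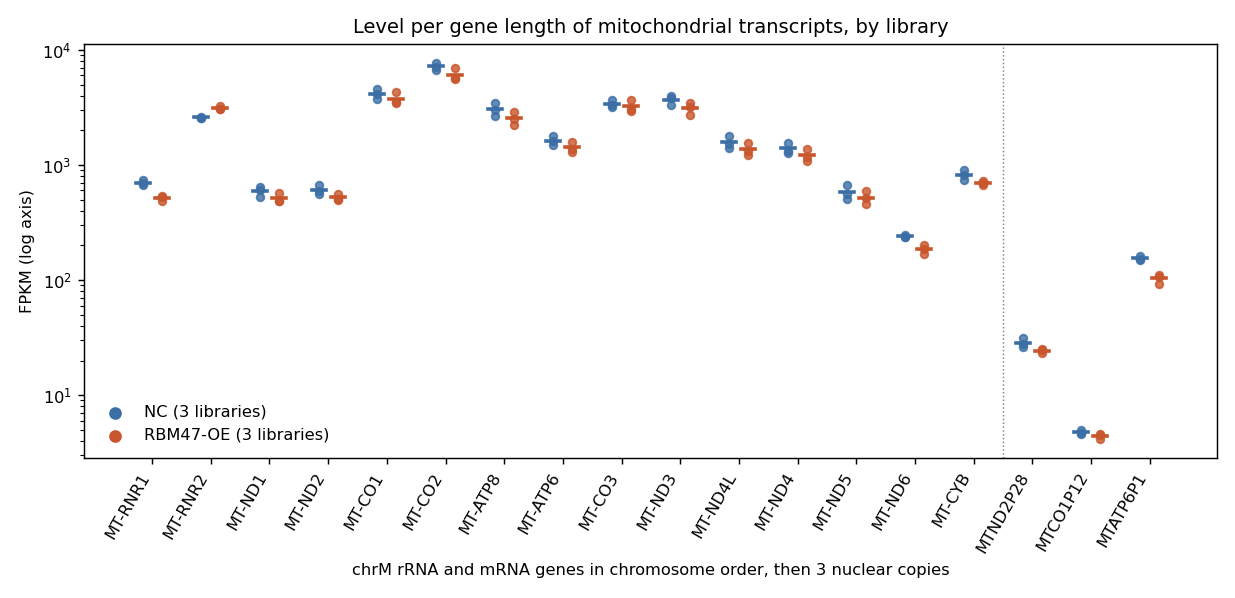
FPKM on a log axis of the 2 rRNA genes and 13 mRNA genes of chrM, in chromosome order, and of the 3 nuclear copies that could be tested. Points are libraries and bars are group means, NC in blue and RBM47-OE in orange. MT-CO2 is highest and MT-ND6 lowest of the mRNA genes in both groups, MT-RNR2 is the only gene whose RBM47-OE libraries all lie above the NC libraries, and the copies lie below their sources.

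Changes were tested by edgeR (quasi-likelihood, TMM factors) in all 16260 genes that passed its filter on low counts, with Benjamini-Hochberg adjustment over all of them. Of the 36 chrM genes 28 passed the filter, which were the 13 mRNA genes, both rRNA genes and 13 of the 21 tRNA genes. At an adjusted p under 0.05, 12 of the 28 were lower in RBM47-OE, where 16.9% of all genes tested were lower, and 1 was higher, where 19.1% of all genes were higher. The median log2 fold change of the 28 genes was -0.27, against 0.00 for all genes tested. Not one of them reached the study's thresholds, an unadjusted p under 0.01 with a fold change over 1.5, which 2.38% of all genes met, 1.51% as higher and 0.873% as lower. The CPM values of the groups, which are counts scaled by library size and TMM factor, did not overlap for 6 lower genes and 1 higher gene of the 28, where 23.4% and 23.2% of all genes were apart in these directions. The share of lower genes apart was thus close to the background, while the share called lower was above it.

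The number of calls varied with single libraries. Without NC replicate 3, 2 chrM genes were lower at an adjusted p under 0.05, MT-RNR1 and MT-ND6, so that the calls on all other mRNA genes ended, and 11.5% of all genes were lower. Without NC replicate 2 there were 6, where 10.2% of all genes were lower, without RBM47-OE replicate 2 there were 7, where 11.9% were, and without RBM47-OE replicate 3 there were 5, where 13.4% were. Without RBM47-OE replicate 1, 15 were lower, where 21.3% of all genes were. With NC replicate 1 left out, 12 were lower, where 12.3% of all genes were. Calls over all genes thus also varied with the library left out, but the chrM counts did not follow them closely. The lowest of these chrM counts, 2, did not come with the lowest share over all genes, 10.2%. When each library's trend with the GC content of exons was taken out (the GC offset), 14 chrM genes were lower, where 8.55% of all genes were lower, and 0 were higher, where 5.98% were. With that offset 5 chrM genes met the study's thresholds, all of them lower and 2 of them tRNA genes. Of all 16260 genes tested, 92 were then lower and 77 higher by these thresholds.

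The rRNA genes changed in opposite directions. The 12S rRNA gene MT-RNR1 (chrM:648 to 1601) and the 16S rRNA gene MT-RNR2 (chrM:1671 to 3229) encode the RNAs of the small and the large subunit of the mitochondrial ribosome, and only the tRNA gene MT-TV lies between them on the same precursor. The ends of both genes are shown because their transcripts are freed there, at the borders with MT-TV and MT-TL1, whose bases are in capitals. The start of MT-TL1 also lies close to the site at which the termination factor MTERF1 is known to bind.
MT-RNR1 end, chrM:1587-1616: tgcacttggacgaacCAGAGTGTAGCTTAA
MT-RNR2 end, chrM:3215-3244: ccaagaacagggtttGTTAAGATGGCAGAG

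MT-RNR1 had 826, 737 and 774 CPM in NC replicates 1, 2 and 3, and 582, 502 and 557 CPM in RBM47-OE replicates 1, 2 and 3. All RBM47-OE libraries lay below all NC libraries, and its log2 fold change of -0.51 (edgeR, SE 0.076, adjusted p = 4.8e-05) was the largest fall of the rRNA and mRNA genes of chrM. It stayed under an adjusted p of 0.05 in all 17 alternatives. For MT-RNR2 the values were 4787, 4596 and 4665 CPM in NC and 5419, 5475 and 5341 CPM in RBM47-OE, here with each RBM47-OE library higher than each NC library, and the log2 fold change came to 0.21 (edgeR, SE 0.077, adjusted p = 0.035). It was the only chrM gene called higher. The call on MT-RNR2 ended with the GC offset, where its log2 fold change was 0.019 (edgeR, adjusted p = 0.89). It also ended with the replicate number as a block (edgeR, adjusted p = 0.14) and with both (edgeR, adjusted p = 0.93). The same held without NC replicate 1, 2 or 3 or RBM47-OE replicate 3, where the log2 fold change was 0.20 to 0.22.

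Within each library, MT-RNR2 had 5.80, 6.23 and 6.03 counts for each count of MT-RNR1 in NC, with a mean of 6.02 ± 0.218 (SD, n = 3). In RBM47-OE the ratio was 9.31, 10.9 and 9.58, with a mean of 9.94 ± 0.860 (SD, n = 3). The gap between the groups was larger than the range within either of them (exact two-sided permutation test, p = 0.10, adjusted p = 0.16), and this ratio was chosen for testing after the values of both genes were seen. Library scaling cancels in it. MT-RNR1 had a GC content of 45.5% and MT-RNR2 of 42.8%. The rRNAs carry shorter tails than the mRNAs as background knowledge has it, and the part of tail length in these values was not tested.

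**Figure D2:**
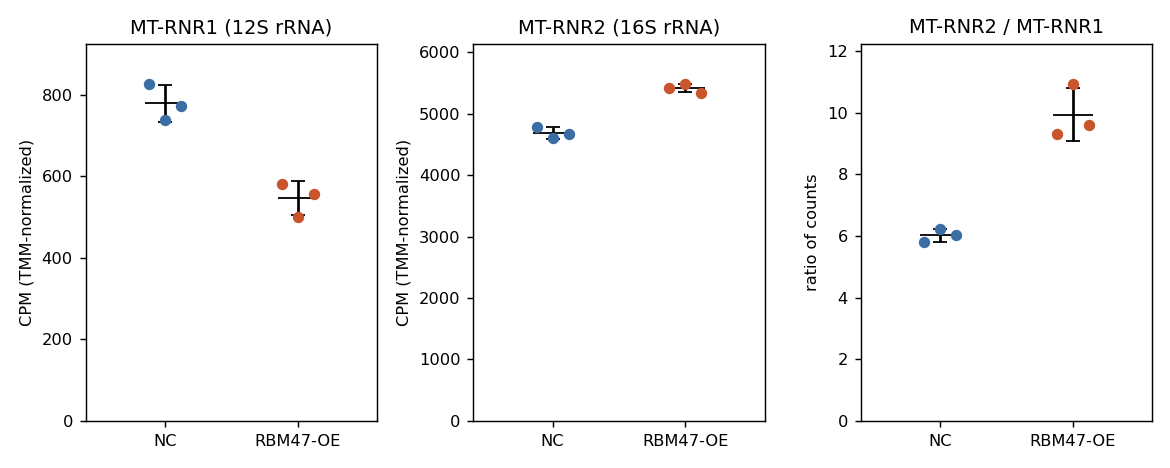
CPM (TMM-normalized) of MT-RNR1 and MT-RNR2 and the ratio of their counts in each library, with group means and SD in black and axes from 0. The RBM47-OE libraries lie below the NC libraries for MT-RNR1, above them for MT-RNR2, and above them in the ratio, 9.31 to 10.9 against 5.80 to 6.23.

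The 13 mRNA genes all had negative log2 fold changes, from -0.46 for MT-ND6 to -0.15 for MT-CO3, with a median of -0.28. Of these, 10 were lower at an adjusted p under 0.05, where 16.9% of all genes tested were, and the values of MT-CO1, MT-CO3 and MT-ND5 did not pass. The genes varied together from library to library within each group. NC replicate 1 was below the mean of the other NC libraries for 13 of the 13 genes, with a median log2 difference of -0.19, and NC replicate 3 was above it for all of them, with 0.21. Against the NC mean, RBM47-OE replicates 2 and 3 were lower for 13 genes each, with medians of -0.35 and -0.39, and RBM47-OE replicate 1 was lower for 11 with a median of -0.08. The 10 calls are therefore not 10 independent observations, and NC replicates 1 and 3 differed from the other NC libraries by more than RBM47-OE replicate 1 differed from NC.

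The mRNA genes of complex I, which takes electrons from NADH, include MT-ND6, the gene with the largest fall among them. MT-ND6 (minus strand, chrM:14149 to 14673) had 146, 145 and 151 CPM in NC and 118, 105 and 98.6 CPM in RBM47-OE. The groups did not overlap, and the log2 fold change was -0.46 (edgeR, SE 0.074, adjusted p = 8.9e-05), which remained under an adjusted p of 0.05 in all 17 alternatives. MT-ND2 had 675, 721 and 807 CPM in NC and 661, 562 and 583 CPM in RBM47-OE, again without overlap, and fell with a log2 fold change of -0.29 (edgeR, SE 0.080, adjusted p = 0.0069). Of the other complex I genes, MT-ND1, MT-ND3, MT-ND4 and MT-ND4L were lower at log2 fold changes of -0.28, -0.31, -0.27 and -0.27 with edgeR adjusted p-values of 0.012, 0.0083, 0.023 and 0.024, while their groups overlapped. In each of these 4 genes RBM47-OE replicate 1 lay above NC replicate 1. For MT-ND5 the values were 1069, 1173 and 1408 CPM in NC and 1205, 1005 and 922 CPM in RBM47-OE, with a log2 fold change of -0.22 (edgeR, SE 0.096, adjusted p = 0.073), which did not pass.

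As the only light-strand mRNA gene, MT-ND6 was also set against the 12 others within each library. It had 0.608, 0.562 and 0.527 percent of their counts in NC and 0.466, 0.520 and 0.484 percent in RBM47-OE. NC replicate 3 and RBM47-OE replicate 2 nearly met, but the groups did not overlap (exact two-sided permutation test, p = 0.10, adjusted p = 0.16). The library kits named are directional, but neither labels nor methods say whether strand was used in counting. If it was not, reads from the opposite strand over MT-ND6 are included in its counts. The MT-ND6 mRNA is also known to carry little or no poly(A) tail, and tail length was not measured here.

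MT-CYB, the cytochrome b subunit of complex III, had 988, 1071 and 1207 CPM in NC and 938, 849 and 846 CPM in RBM47-OE. Its groups did not overlap, with RBM47-OE replicate 1 closest to NC, and it fell with a log2 fold change of -0.31 (edgeR, SE 0.080, adjusted p = 0.0038). The 3 cytochrome c oxidase genes were the most abundant mRNA genes by count. MT-CO1 had 6761, 7347 and 8135 CPM in NC and 7457, 5845 and 5874 CPM in RBM47-OE, and RBM47-OE replicate 1 lay above NC replicates 1 and 2. It had a log2 fold change of -0.21 (edgeR, SE 0.095, adjusted p = 0.081), which did not pass. MT-CO2 was lower at -0.31 (edgeR, SE 0.092, adjusted p = 0.011), from 5333, 5633 and 6119 CPM in NC to 5382, 4213 and 4227 CPM in RBM47-OE, and RBM47-OE replicate 1 lay just above NC replicate 1. MT-CO3 had 2909, 3033 and 3357 CPM in NC and 3237, 2499.6 and 2653 CPM in RBM47-OE, a log2 fold change of -0.15 (edgeR, SE 0.090, adjusted p = 0.21), and did not pass.

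The ATP synthase genes MT-ATP8 and MT-ATP6 share 46 bases (chrM:8527 to 8572), and MT-ND4L and MT-ND4 share 7 (chrM:10760 to 10766), each pair lying on 1 common mRNA. A read over a shared stretch belongs to both genes, and how such reads were assigned is not given in the sources used here. The start of MT-ATP6 within MT-ATP8 and the stretch that MT-ND4L and MT-ND4 share are shown with the first 3 bases of MT-ATP6 and all the shared bases, respectively, in capitals.
MT-ATP6 start, chrM:8520-8549: aaccaaaATGaacgaaaatctgttcgcttc
MT-ND4 start, chrM:10750-10779: acctactccaATGCTAAaactaatcgtccc

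MT-ATP8 had 646, 715 and 827 CPM in NC and 668, 563 and 514 CPM in RBM47-OE, and was lower by a log2 fold change of -0.33 (edgeR, SE 0.091, adjusted p = 0.0068). MT-ATP6 had 1177, 1269 and 1419 CPM in NC and 1222, 1008 and 983 CPM in RBM47-OE, and was lower at -0.27 (edgeR, SE 0.087, adjusted p = 0.018). In both genes RBM47-OE replicate 1 lay above NC replicate 1, so that the groups overlapped. MT-ND4L and MT-ND4, on their common mRNA, had nearly the same log2 fold change, -0.27 and -0.27.

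The GC content of the mRNA genes ranged from 39.6% in MT-ATP8 to 47.7% in MT-ND1. With the GC offset all 13 log2 fold changes remained negative, 11 were lower at an adjusted p under 0.05, where 8.55% of all genes were, with MT-ND5 now among them, and MT-CO1 and MT-CO3 were not. The value that moved most was that of MT-ATP8, to -0.61, and that of MT-ND1, at -0.28, moved least. For MT-ND6 it was -0.65. Limma on log2(FPKM + 1) tested all 36 chrM genes, and 3 of the 36 were lower at an adjusted p under 0.05, where 9.02% of all genes were. These 3 were MT-RNR1, MT-ND6 and the tRNA gene MT-TN.

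**Figure D3:**
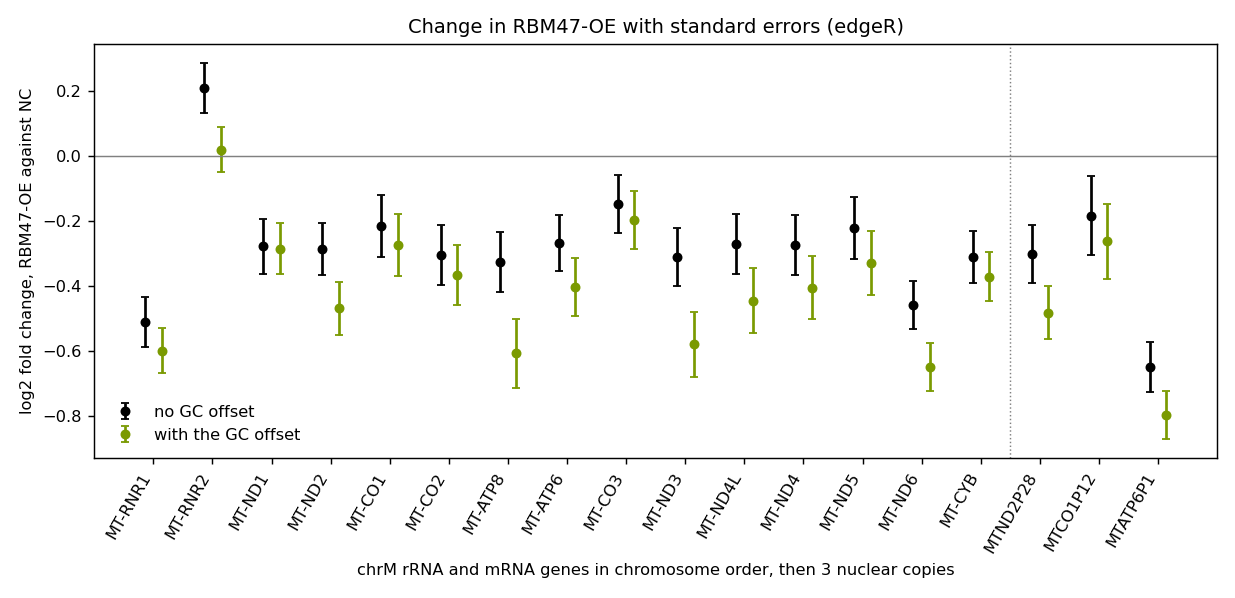
Log2 fold changes of RBM47-OE against NC with standard errors from edgeR for the 15 rRNA and mRNA genes of chrM in chromosome order and 3 nuclear copies, without the GC offset in black and with it in green. Without the offset MT-RNR2 is the only gene above 0, at 0.21, and with it this gene is at 0.019. MTATP6P1 lies lowest, followed without the offset by MT-RNR1.

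Mature tRNAs are short, carry no poly(A) tail and are largely lost in poly(A) libraries. Which RNAs the counts on tRNA genes came from here was not tested. Of the 21 tRNA genes kept, 5 had a mean of at least 50 counts, and the other 16 had a mean of 32.7 or less. MT-TC had 174, 208 and 203 counts in NC and 252, 203 and 159 in RBM47-OE, and MT-TA had 176, 198 and 211 and 235, 212 and 148. Their log2 fold changes were -0.013 (edgeR, SE 0.14, adjusted p = 0.96) and -0.062 (edgeR, SE 0.15, adjusted p = 0.78), which differed from 0 by less than their standard errors. When libraries were scaled by their totals the sign of MT-TC changed, to 0.048.

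The 13 tRNA genes tested had a median log2 fold change of -0.18, and 12 of them had negative values. Of the 13, 1 was called, as lower, where 16.9% of all genes were, a smaller share than over all genes. Low counts limit this comparison, with standard errors up to 0.48 for MT-TE, at a mean of 9.67 counts. The 1 gene called was MT-TN, which was chosen for mention after its values were seen. It had 100, 103 and 118 counts in NC and 84, 91 and 65 in RBM47-OE, lay apart between the groups in CPM, and fell with a log2 fold change of -0.50 (edgeR, SE 0.19, adjusted p = 0.039). Its call ended without NC replicate 1, NC replicate 3, RBM47-OE replicate 1 or RBM47-OE replicate 3, at edgeR adjusted p-values of 0.056 to 0.18, and with DESeq2 (adjusted p = 0.058) and library totals (edgeR, adjusted p = 0.083). MT-TA, MT-TN, MT-TC and MT-TY lie side by side on the minus strand between MT-ND2 and MT-CO1, so reads of the plus-strand precursor could not be told apart from theirs if strand was not used.

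Of the 9 nuclear copies, MTATP6P1, MTND2P28 and MTCO1P12 held between 99.6% and 99.9% of the counts in each library, and MTATP6P1 alone held 65.7% to 74.4%. These 3 passed the filter on low counts. The other 6 had 0 to 6 counts in each library, 28 counts over the NC libraries and 36 over the RBM47-OE libraries, and were not tested. Copies of like identity differed widely in counts. MTCO2P12 and MTCO3P12, which lie in the same stretch of chromosome 1 at 97.95% and 98.17% identity, had mean counts of 1.33 and 1.67, and each of their windows of 150 bases held a difference. MTND4P12, MTND6P4 and MTND5P11 lie side by side on chromosome 5, at 95.78%, 95.02% and 92.99% identity, with mean counts of 3.67, 1.17 and 1.17. MTND5P42 on chromosome 10 could be aligned to MT-ND5 at 74.88% identity. The 17 copies under the limit of 1 count had identities of 66.7% to 97.6%.

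MTATP6P1 (ENSG00000248527, chr1:633696-634376) had 3109, 4181 and 3640 counts in NC and 2826, 2492 and 2029 in RBM47-OE. In CPM this was 118, 121 and 127 in NC and 85.6, 77.6 and 70.0 in RBM47-OE. The highest RBM47-OE library lay well below the lowest NC library, and the log2 fold change of -0.65 (edgeR, SE 0.076, adjusted p = 8.9e-06) was the largest in size of all the chrM genes and copies tested. It stayed under an adjusted p of 0.05 in all 17 alternatives, at log2 fold changes from -0.80 to -0.58. It met the study's thresholds, but without RBM47-OE replicate 3 and with limma its fold change was under 1.5. With FPKM values of 154 ± 5.76 (SD, n = 3) in NC, the copy stood at 9.46% of the FPKM of MT-ATP6, a gene of the same length.

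The other copies moved less. MTND2P28 (ENSG00000225630, chr1:629640-630683) had 32.1, 33.7 and 38.3 CPM in NC and 29.3, 26.2 and 28.9 CPM in RBM47-OE, without overlap, and fell with a log2 fold change of -0.30 (edgeR, SE 0.089, adjusted p = 0.0098). Its call ended without NC replicate 3 (edgeR, adjusted p = 0.11), without RBM47-OE replicate 2 (edgeR, adjusted p = 0.060) and with limma on log2(FPKM + 1) (adjusted p = 0.054). MTCO1P12 (ENSG00000237973, chr1:631074-632616) had 8.33, 8.33 and 8.97 CPM in NC and 7.79, 7.63 and 7.14 CPM in RBM47-OE. Its groups did not overlap either, but the log2 fold change of -0.18 (edgeR, SE 0.12, adjusted p = 0.26) did not pass. All 3 copies tested were thus lower in every RBM47-OE library, where 23.4% of all genes tested were, and 2 of the 3 were called lower, where 16.9% of all genes were.

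Each copy was then set against its own source gene within each library, so that library scaling cancels. MTATP6P1 had 10.1, 9.53 and 8.92 percent of the counts of MT-ATP6 in NC and 7.01, 7.70 and 7.12 percent in RBM47-OE. The groups did not overlap, at a log2 difference of -0.38 (exact two-sided permutation test, p = 0.10, adjusted p = 0.16). For MTND2P28 and MT-ND2 the values were 4.76, 4.67 and 4.74 percent in NC and 4.43, 4.65 and 4.97 percent in RBM47-OE, with overlap (exact two-sided permutation test, p = 0.70). MTCO1P12 stood at 0.123, 0.113 and 0.110 percent of MT-CO1 in NC and 0.104, 0.131 and 0.122 percent in RBM47-OE, also with overlap (exact two-sided permutation test, p = 0.80). These 3 ratios were chosen for testing after the values were seen. The copies thus differed in how they stood to their sources, from 0.104 to 10.1 percent of the counts, at nearly equal identity.

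The planned ratio, the counts of all 9 copies against those of their source genes, was 0.790, 0.761 and 0.729 percent in NC and 0.574, 0.659 and 0.627 percent in RBM47-OE, without overlap (exact two-sided permutation test, p = 0.10, adjusted p = 0.16). It rested on MTATP6P1, because without this copy the log2 difference between the groups shrank from -0.30 to -0.024 (exact two-sided permutation test, p = 0.90). From counts alone, reads of nuclear copies and reads of chrM transcripts placed on them could not be told apart.

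**Figure D4:**
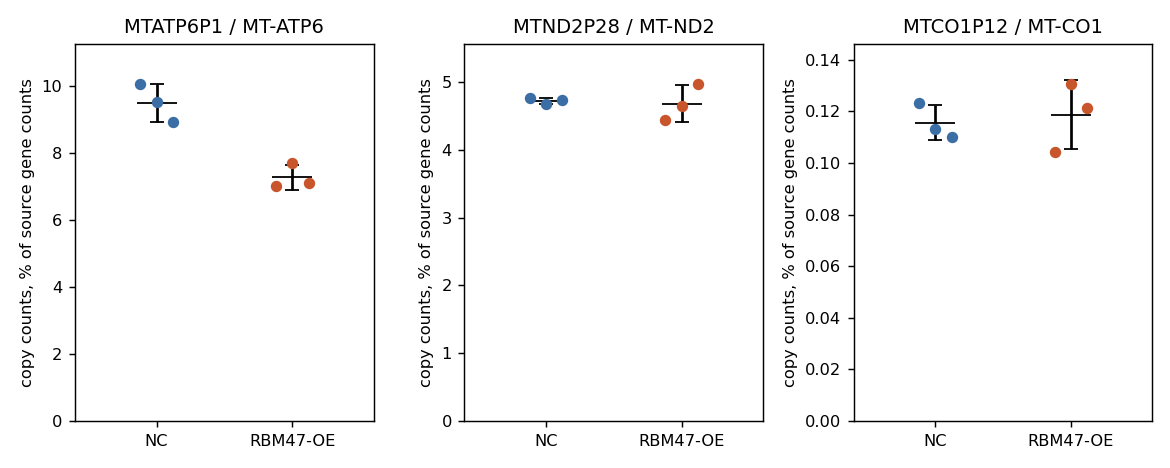
Counts of 3 nuclear copies as a percent of the counts of their chrM source genes in each library, with group means and SD in black and axes from 0. For MTATP6P1 the RBM47-OE libraries lie at 7.01 to 7.70 percent and the NC libraries at 8.92 to 10.1 percent, while the groups overlap for MTND2P28 and MTCO1P12.

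The nuclear genes that copy, transcribe, process, modify and degrade mitochondrial DNA and RNA were taken from a list of 52 genes written from general knowledge. All 52 are in the count table and 51 passed the filter, MRM2 being the exception. At an adjusted p under 0.05, 12 were higher and 12 lower in RBM47-OE, together 47.1% where 35.9% of all genes tested were called. Their median log2 fold change was 0.02, against 0.00 for all genes, and not one met the study's thresholds. With the GC offset 1 was higher, where 5.98% of all genes were, and 10 were lower, where 8.55% were. Together this was 21.6% where 14.5% of all genes were called.

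In transcription and replication, POLRMT, the mitochondrial RNA polymerase, had 191, 201 and 202 CPM in NC and 172, 144 and 150.4 CPM in RBM47-OE. Its groups did not overlap, and it fell with a log2 fold change of -0.35 (edgeR, SE 0.074, adjusted p = 8.2e-04), which with the GC offset was -0.13 (edgeR, adjusted p = 0.12). TFAM, which packs mitochondrial DNA and starts transcription, had 41.8, 38.7 and 43.0 CPM in NC and 42.8, 50.7 and 59.9 CPM in RBM47-OE, with RBM47-OE replicate 1 within the NC range. It was called higher at 0.31 (edgeR, SE 0.095, adjusted p = 0.012), but with the GC offset the value turned to -0.054 (edgeR, adjusted p = 0.67). TWNK, the replicative helicase, showed the largest fall of the list, -0.46 (edgeR, SE 0.081, adjusted p = 2.0e-04), and remained lower with the GC offset at -0.31 (edgeR, adjusted p = 0.0048). PRIMPOL, a primase and polymerase that also acts in the nucleus, was higher at 0.38 (edgeR, adjusted p = 0.037), and at 0.060 (edgeR, adjusted p = 0.82) with the GC offset was not called. The call on TFAM also ended without NC replicate 2 or RBM47-OE replicate 3 (edgeR, adjusted p = 0.083 and 0.13), and that on PRIMPOL without any 1 of NC replicates 1 and 3 and RBM47-OE replicates 2 and 3 (edgeR, adjusted p = 0.082 to 0.17).

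In the handling of the transcripts, LRPPRC, which binds mitochondrial mRNAs together with SLIRP and keeps them stable and polyadenylated, had 219, 222 and 223 CPM in NC and 257, 325 and 335 CPM in RBM47-OE. The groups did not overlap, and its log2 fold change of 0.46 (edgeR, SE 0.082, adjusted p = 1.9e-04) was the largest rise of the list. Its partner SLIRP went the other way, from 108, 107 and 101 CPM in NC to 86.8, 76.0 and 90.6 CPM in RBM47-OE, without overlap and with a log2 fold change of -0.32 (edgeR, SE 0.075, adjusted p = 0.0018). With the GC offset LRPPRC was at 0.10 (edgeR, adjusted p = 0.25) and SLIRP at -0.38 (edgeR, adjusted p = 5.0e-04), so that the call on SLIRP held and that on LRPPRC did not.

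Of the FASTK family, which binds and matures mitochondrial RNAs, FASTKD1 was higher at 0.43 (edgeR, adjusted p = 0.0065), FASTKD2 likewise at 0.38 (edgeR, adjusted p = 0.0043), and TBRG4 was lower at -0.40 (edgeR, adjusted p = 1.9e-04). FASTK, FASTKD3 and FASTKD5 were not called, at -0.17, 0.22 and -0.16 (edgeR, adjusted p = 0.11, 0.31 and 0.25). PNPT1, the polynucleotide phosphorylase that degrades mitochondrial RNA, was higher at 0.38 (edgeR, adjusted p = 0.0023), as was LACTB2, a mitochondrial ribonuclease, at 0.35 (edgeR, adjusted p = 0.0062), which turned to -0.032 with the GC offset. HSD17B10, a subunit of the RNase that cuts tRNA 5′ ends, was lower at -0.34 (edgeR, adjusted p = 0.0026). PTCD1, a pentatricopeptide protein of mitochondrial RNA, was lower at -0.38 (edgeR, adjusted p = 6.5e-04). Without the GC offset, members of this group were thus called in both directions. With it, FASTKD1 was at 0.11 (edgeR, adjusted p = 0.51), FASTKD2 at 0.072 (edgeR, adjusted p = 0.61) and PNPT1 at 0.087 (edgeR, adjusted p = 0.50). PTCD1 was then at -0.19 (edgeR, adjusted p = 0.057), and FASTKD5 was called lower at -0.31 (edgeR, adjusted p = 0.040). Of the genes of this group named, only TBRG4, HSD17B10, SLIRP and FASTKD5 were called with the offset, all lower.

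Among the RNA-modifying enzymes, MRM1 and MRM3, which methylate the 16S rRNA, had lower values at log2 fold changes of -0.43 and -0.36 (edgeR, adjusted p = 0.0068 and 0.0017), and PUS1, a pseudouridine synthase, at -0.39 (edgeR, adjusted p = 0.0011). TRIT1 and TRMT5, which modify tRNAs in mitochondria and elsewhere in the cell, were higher at log2 fold changes of 0.42 and 0.39 (edgeR, adjusted p = 0.0010 and 0.0037). With the GC offset TRMT5 was at 0.11 (edgeR, adjusted p = 0.41), MRM1 at -0.22 (edgeR, adjusted p = 0.18) and PUS1 at -0.20 (edgeR, adjusted p = 0.077). TRIT1 was the 1 gene of the list still called higher with the GC offset, at 0.23 (edgeR, adjusted p = 0.041). MRM3 was still called lower with it, at -0.21 (edgeR, adjusted p = 0.034). Without NC replicate 2 the call on MRM1 ended (edgeR, adjusted p = 0.056), and without RBM47-OE replicate 3 that on FASTKD2 (edgeR, adjusted p = 0.051).

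**Figure D5:**
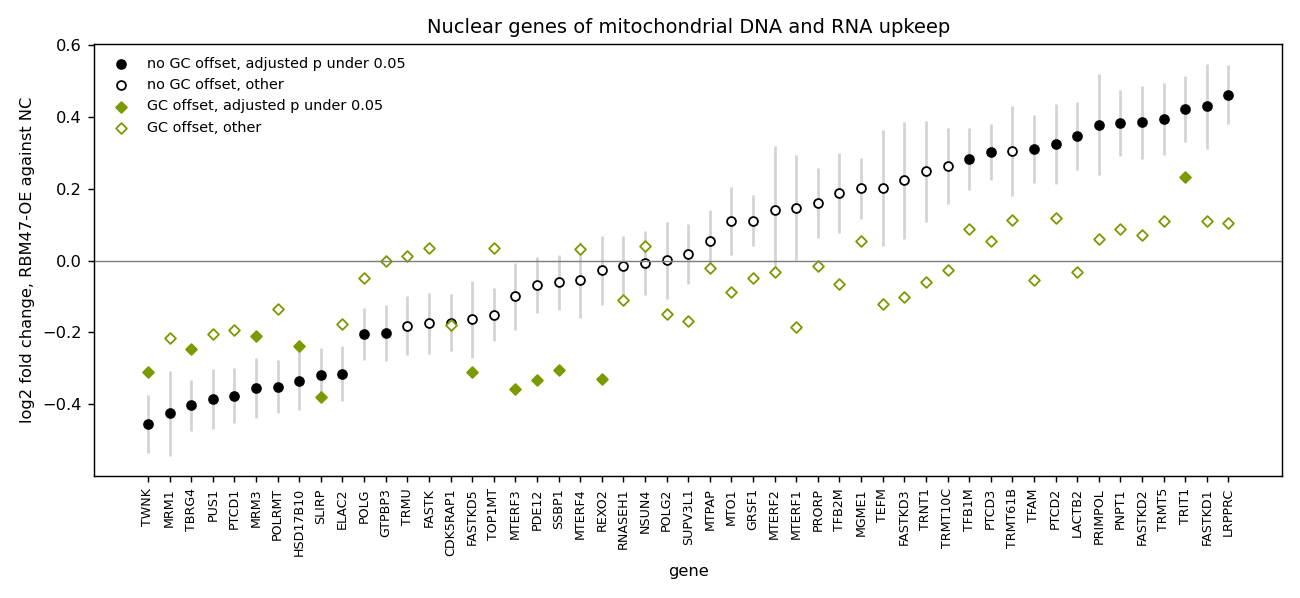
Log2 fold changes of RBM47-OE against NC for the 51 tested nuclear genes of mitochondrial DNA and RNA upkeep, in order of their value without the GC offset (black circles, with standard errors in grey), and the values with the GC offset (green diamonds). Filled symbols have an edgeR adjusted p under 0.05. The values without the offset run from -0.46 for TWNK to 0.46 for LRPPRC, and TRIT1 is the only filled green symbol above 0.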

How the data were processed

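Per the study's methods, the authors trimmed reads with FASTX-Toolkit, aligned them to GRCh38 with HISAT2 allowing 4 mismatches, counted uniquely mapped reads and made FPKM from them. The deposited counts are whole reads per gene without normalization, and the deposited FPKM values are the authors' own. The counting tool, strand setting and annotation are not given in the sources used here. The lengths behind the FPKM of the chrM genes matched GENCODE 44. Unique mapping drops reads that fit chrM and a copy equally well.

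Members, lists and tests were chosen with earlier results of these data known. edgeR 4.0.16 in R 4.3.3 used filterByExpr (minimum count 10, minimum total count 15), TMM factors and the quasi-likelihood F test of condition, in place of the study's DESeq2. SE is the absolute log2 fold change over the root of F. The GC offset used loess curves (span 0.3) on the GC content of exons, and genes without a value kept an offset of 0. Alternatives were DESeq2 1.42.0, RLE factors, library totals, scaling without chrM genes, no low-count filter, a filter of 10 counts in each library, the replicate block, the GC offset with and without it, limma 3.58.1 on log2(FPKM + 1) or log2(FPKM + 0.1) where the mean FPKM reached 0.1, and each library left out in turn. Copies were aligned to their sources with Biopython 1.88 (local alignment, match 2, mismatch -3). The tests were tried on simulated counts without a GC trend or shared variation between genes, so that trial does not cover these features of the libraries. Depth was 26792409 to 35477983 counts per library.

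Genes were named by rule: the 13 mRNA and 2 rRNA genes, tRNA genes with a mean of at least 100 counts, the nuclear copies, and of the machinery list the 8 with the largest called change in each direction plus POLRMT, TFAM, LRPPRC and SLIRP. The other FASTK family genes of the list were named beside these.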

Additional observations from a re-analysis of the deposited data

How the results depend on the processing

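The count of chrM genes lower in RBM47-OE was 12 of the 28 tested. It stood at 3 with limma on log2(FPKM + 1) and 3 with limma on log2(FPKM + 0.1), both of which tested 36. It was 0 with the study's thresholds, and between 2 and 15 with single libraries left out. The count of chrM genes higher was 1 (MT-RNR2), and 0 with the replicate block, the GC offset, the GC offset with the replicate block and the study's thresholds, and 0 to 1 with single libraries left out. For the nuclear copies the count lower was 2, and 1 with limma on log2(FPKM + 1), with limma on log2(FPKM + 0.1) and with the study's thresholds, and 1 to 2 with single libraries left out. Of the machinery genes 12 were higher, against 1 with the GC offset and 1 with the GC offset and the replicate block. Beside these counts, 16.9% of all genes tested were lower by edgeR. The share was 9.02% and 9.09% with the 2 limma settings, 0.873% with the study's thresholds, and 10.2% to 21.3% with single libraries left out. Of all genes, 19.1% were higher by edgeR, 5.98% with the GC offset and 1.51% with the study's thresholds. The cause of the changes in these counts was not tested.

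Signs turned for MT-TC with library totals (0.048), limma on log2(FPKM + 1) (0.042) and log2(FPKM + 0.1) (0.042) and with libraries left out (-0.14 to 0.091), and for MT-TA with libraries left out (-0.16 to 0.063). They also turned for LACTB2 and TFAM with the GC offset (-0.032 and -0.054) and with the GC offset and the replicate block (-0.032 and -0.057). With libraries left out, the log2 difference in the ratio of MTND2P28 to MT-ND2 ran from -0.057 to 0.025 and that of MTCO1P12 to MT-CO1 from -0.036 to 0.12. None of these had passed a test except LACTB2 and TFAM.

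The counts showed no pairing of the libraries by replicate number, but this check cannot show whether same-numbered libraries were handled together. The deviations of same-numbered NC and RBM47-OE libraries from their group means had correlations of -0.060, -0.015 and -0.016 across genes, and no library correlated best with its own number. With the number as a block, 0 chrM genes were higher, as MT-RNR2 had an edgeR adjusted p of 0.14. With 3 pairs a sign-flip permutation of a ratio cannot go below p = 0.25. Low counts limit the tRNA genes and copies that were not tested.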

Other observations

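The rule matched no nuclear copy of the rRNA genes, but the count table lists 4 genes of the MTRNR2L family, which are nuclear relatives of the 16S rRNA gene MT-RNR2 with a short open reading frame. They were looked at after the data were seen. MTRNR2L12 had a mean of 5.67 counts over the 6 libraries and MTRNR2L8 one of 2.5, and MTRNR2L1 and MTRNR2L4 one of 0.167 each. MTRNR2L12 had 7, 5 and 3 counts in NC and 9, 2 and 8 in RBM47-OE. None of the 4 passed the filter on low counts, so no test was made, and next to the 125780 to 178819 counts on MT-RNR2 in each library they are few.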
